A study of Mus musculus with 2 samples.

Results

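The 10 genes described here are grouped as defence genes of neutrophils and mucosal epithelia, and most but not all of their products are secreted or stored in granules: Ltf, Lcn2, Pglyrp1, Bpifb1, Plac8, S100a8, S100a9, Olfm4, Prss27 and Cst7. They are 10 of the 23420 gene rows of the count table, and all 10 passed the filter on low counts that left 15796 genes tested. They were chosen by their level difference between the 2 genotypes, several having been higher in the libraries labelled AhR -/-, so that difference is given below as a description without a test. RNA came from the RPE-choroid, the retinal pigment epithelium with the vascular layer behind it, of untreated mice 11 to 13 months old. The AhR -/- group (strain B6.129-AhR tm1Bra/J) has the gene of the aryl hydrocarbon receptor targeted in the germ line, so no cell type is singled out, and the AhR +/+ group is C57BL6/J, so strain and genotype cannot be told apart. Each group has 3 animals, each with 1 polyA-enriched library that pools the RPE-choroid of 2 eyes.

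Neutrophils store antimicrobial proteins in granules and cytosol and release them at sites of infection. Epithelia of wet surfaces such as the conjunctiva, the airway and the gut make several of the same proteins and secrete them into mucus or tears. The aryl hydrocarbon receptor is a ligand-activated transcription factor that binds DNA at dioxin response elements and is known to act in barrier epithelia and immune cells.

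Gene counts summed to between 18058725 and 24581160 in the knockout-labelled libraries and between 24715580 and 28692624 in the wild-type libraries. Ahr itself was counted at 40.6 to 45.4 CPM (the gene count set against the library size after TMM scaling) in the knockout-labelled libraries and at 19.7 to 26.0 CPM in wild type. That count covers the whole gene, so it does not check the deletion, and it was higher rather than lower. For that reason the group is named knockout-labelled throughout. All 14 RPE markers and all 13 choroid markers were detected. The RPE markers summed to between 24796 and 41612 CPM in the knockout-labelled and between 32840 and 43545 CPM in the wild-type libraries. The highest RPE marker, Ttr, averaged 16037 ± 4029 and 19285 ± 3459 CPM in knockout-labelled and wild-type libraries, and the highest choroid marker, Dcn, 5842 ± 248 and 6418 ± 630 CPM in the same order (SD, n = 3 each). Animal 1 was female by Xist in both groups (821 CPM in the knockout-labelled and 844 CPM in the wild-type library), and animals 2 and 3 were male. Knockout-labelled animal 1 stood apart in having 1122 CPM of erythroid markers in sum, against 56.1 and 78.7 CPM in animals 2 and 3 of its group and 4.36 to 33.9 CPM in wild type. The highest of these, the heme synthesis gene Alas2, had 847 CPM in that animal.

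The members lie on separate loci, and in the GENCODE M21 annotation (GRCm38) 9 of the 10 overlap no other gene. Olfm4 overlaps a long non-coding RNA gene, Gm6999, on its own strand, so its count is uncertain. On the plus strand lie Ltf at chr9:111019271-111042767, Pglyrp1 at chr7:18871331-18890459, Bpifb1 at chr2:154190818-154220369, S100a8 at chr3:90668978-90670035, Olfm4 at chr14:79984081-80023139, Prss27 at chr17:24038144-24045954 and Cst7 at chr2:150570415-150578944. On the minus strand lie Lcn2 at chr2:32384633-32388252, Plac8 at chr5:100553725-100572245 and S100a9 at chr3:90692632-90695721, which is 22596 bases from S100a8. RefSeq promoter windows of GRCm38.p6, from 250 bases before to 50 after the start of transcription, were found for all 10 members. Both strands were searched for GCGTG, the core of the dioxin response element, for TTGCNNAA of C/EBP type, for TTCNNNGAA of STAT type and for the NF-kB consensus. The core of the dioxin response element was in 2 of 10 member windows, Olfm4 and Cst7, and in 32.6% of 32544 windows of all genes. The C/EBP type motif was in 4 of 10 (Ltf, Lcn2, S100a9 and Cst7), against 10.8% of all windows. The NF-kB consensus was in 3 of 10 (Pglyrp1, Bpifb1 and Olfm4), against 8.49% of all windows. The STAT type motif was in 0 of 10, against 8.33% of all windows. A match describes these letters and is not evidence of binding. The windows of 5 members are shown, since they hold all matches of the dioxin response element core and examples of the other motifs found, with the matches in capitals:

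Ltf: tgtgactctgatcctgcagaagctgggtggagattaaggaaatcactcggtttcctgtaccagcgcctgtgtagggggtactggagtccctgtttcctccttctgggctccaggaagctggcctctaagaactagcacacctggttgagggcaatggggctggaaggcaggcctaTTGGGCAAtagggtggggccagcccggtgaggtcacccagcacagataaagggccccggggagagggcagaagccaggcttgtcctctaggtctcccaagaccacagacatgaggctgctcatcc
S100a9: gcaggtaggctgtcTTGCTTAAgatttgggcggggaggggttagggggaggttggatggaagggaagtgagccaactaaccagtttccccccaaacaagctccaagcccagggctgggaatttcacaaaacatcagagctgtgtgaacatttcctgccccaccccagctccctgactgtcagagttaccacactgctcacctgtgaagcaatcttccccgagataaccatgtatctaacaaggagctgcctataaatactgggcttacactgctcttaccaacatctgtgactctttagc
Bpifb1: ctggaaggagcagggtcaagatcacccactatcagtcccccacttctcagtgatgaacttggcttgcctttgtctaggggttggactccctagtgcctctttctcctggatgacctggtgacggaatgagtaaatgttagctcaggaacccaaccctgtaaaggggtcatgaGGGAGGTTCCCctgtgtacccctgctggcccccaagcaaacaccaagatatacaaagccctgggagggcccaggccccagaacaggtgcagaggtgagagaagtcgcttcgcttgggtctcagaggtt
Olfm4: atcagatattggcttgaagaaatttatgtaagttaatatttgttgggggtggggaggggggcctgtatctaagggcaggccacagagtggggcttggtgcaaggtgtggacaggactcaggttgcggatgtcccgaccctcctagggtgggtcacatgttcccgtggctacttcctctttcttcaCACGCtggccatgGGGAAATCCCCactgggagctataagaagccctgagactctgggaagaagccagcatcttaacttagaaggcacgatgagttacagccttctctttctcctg
Cst7: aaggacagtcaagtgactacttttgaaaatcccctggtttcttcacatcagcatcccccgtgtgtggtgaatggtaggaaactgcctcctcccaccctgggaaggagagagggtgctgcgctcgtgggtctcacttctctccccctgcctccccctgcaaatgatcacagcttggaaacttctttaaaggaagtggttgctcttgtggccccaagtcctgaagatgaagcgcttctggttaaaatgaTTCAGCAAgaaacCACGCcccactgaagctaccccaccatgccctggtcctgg

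The windows are chr9:111019042-111019341 (plus strand) for Ltf, chr3:90695672-90695971 (minus strand) for S100a9, chr2:154190568-154190867 (plus strand) for Bpifb1, chr14:80000052-80000351 (plus strand) for Olfm4 and chr2:150570165-150570464 (plus strand) for Cst7. The capitals of Ltf and S100a9 are C/EBP type matches, which begin 75 and 236 bases before the start. Those of Bpifb1 are a pair of overlapping NF-kB matches, the first of which begins 78 bases before the start. In Olfm4 the dioxin response element core, read on the other strand, begins 65 bases before the start and is followed by overlapping NF-kB matches. In Cst7 a C/EBP type match spans the start, and the core of the dioxin response element, also on the other strand, begins at base 11 after it. The Olfm4 window lies inside the GENCODE locus (79984081 to 80023139) rather than at its 5′ end. So do 2 windows that are not shown but were counted above, Pglyrp1 (chr7:18884440-18884739) and Lcn2 (chr2:32387690-32387989).

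All 10 members were higher in every knockout-labelled library than in any wild-type library. Group means differed by a log2 fold change of between 1.07 (Prss27) and 4.18 (Cst7), with a median of 2.35, against a median of 0.01 over all genes tested. In sum the members made up 478, 493 and 504 CPM in knockout-labelled animals 1, 2 and 3, against 158, 129 and 115 CPM in wild-type animals 1, 2 and 3. Over all 15796 genes, 1585 (10.03%) had no overlap in this direction. In edgeR's quasi-likelihood test at a Benjamini-Hochberg adjusted p under 0.05, 8 genes (0.0506%) were called and 4 of them (0.0253%) were higher, of which Ltf, Plac8 and Bpifb1 are members. Because the members were chosen on this contrast, nothing is read from these counts. The tissue is bulk, so more cells of a type and more RNA per cell cannot be told apart.

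**Figure D1:**
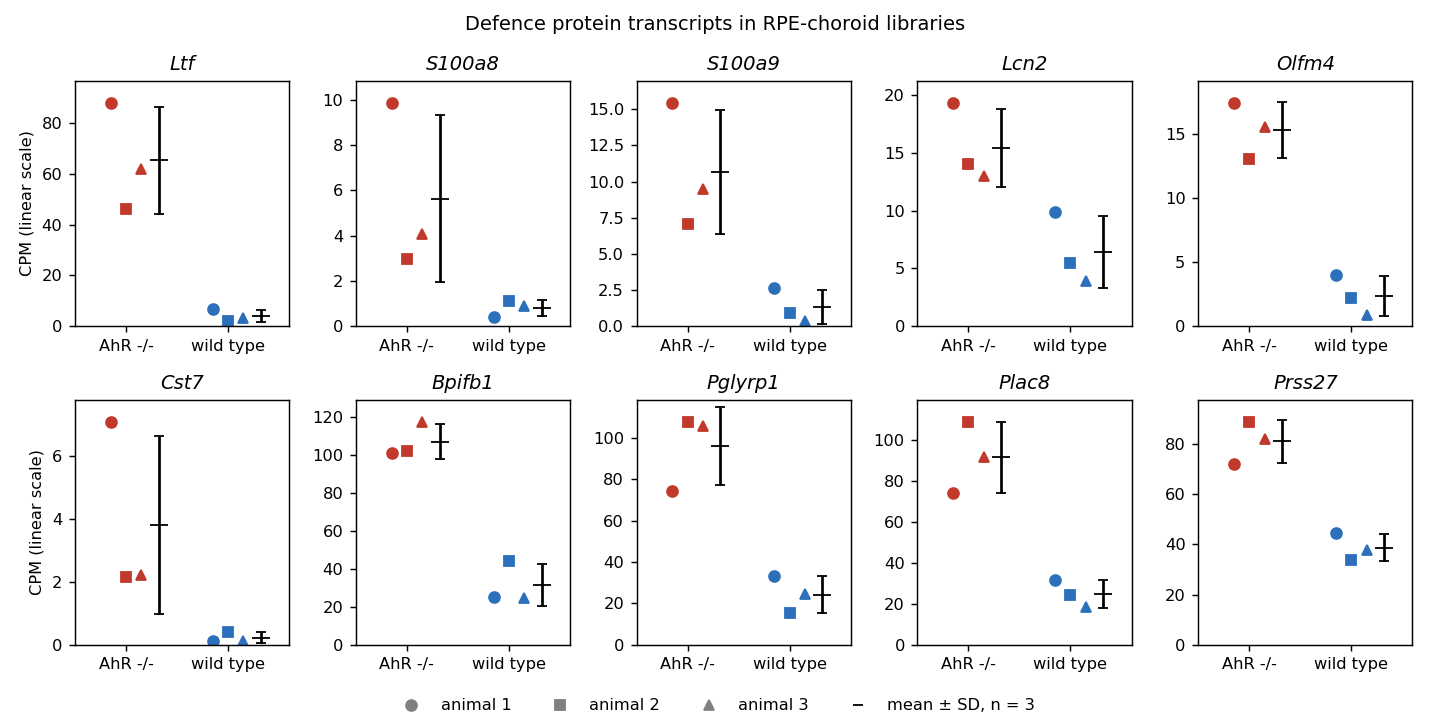
Level of each member in CPM (linear axis from 0) in the 3 knockout-labelled (red, labelled AhR -/-) and 3 wild-type (blue) libraries, with a marker shape per animal and the mean and SD of each group in black. In every panel the red points lie above the blue ones. Animal 1 is the highest red point for Ltf, S100a8, S100a9, Lcn2, Olfm4 and Cst7 and the lowest for Bpifb1, Pglyrp1, Plac8 and Prss27.

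Ltf encodes lactotransferrin, which binds iron and is stored in secondary granules of neutrophils and secreted into tears. Its level was 88.0, 46.0 and 62.2 CPM in knockout-labelled animals 1, 2 and 3, against 6.62, 1.82 and 3.25 CPM in wild-type animals 1, 2 and 3. The lowest knockout-labelled library was 6.96 times the highest wild-type library, the widest gap among the 10 members. The log2 fold change was 4.07 (SE 0.44).

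Lcn2, which encodes lipocalin 2, a protein that withholds iron from bacteria by binding their siderophores, had 19.3, 14.05 and 13.0 CPM in knockout-labelled animals 1, 2 and 3, against 9.85, 5.49 and 3.87 CPM in wild-type animals 1, 2 and 3. Its gap was the narrowest of the 10, with the lowest knockout-labelled library at 1.32 times the highest wild-type one. The log2 fold change was 1.27 (SE 0.35). The ratio of Ltf to Lcn2, both secondary granule genes, differed between the groups, and the source of this was not tested. The CPM of Ltf was 3.28 to 4.80 times that of Lcn2 in knockout-labelled libraries and 0.33 to 0.84 times that of Lcn2 in wild type.

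S100a8 and S100a9 encode the subunits of calprotectin, a zinc- and manganese-binding complex that fills the cytosol of neutrophils and is induced in stressed epithelia. S100a8 had 9.84, 2.96 and 4.07 CPM in knockout-labelled animals 1, 2 and 3, against 0.41, 1.12 and 0.86 CPM in wild-type animals 1, 2 and 3 (log2 fold change 2.82, SE 0.62). S100a9 had 15.4, 7.08 and 9.51 CPM in the knockout-labelled animals and 2.63, 0.87 and 0.38 CPM in wild type, in the same order of animals (log2 fold change 3.04, SE 0.64). Knockout-labelled animal 1 was the highest library for both subunits. The count of S100a9 was 1.57, 2.39 and 2.34 times that of S100a8 in knockout-labelled animals 1, 2 and 3, and 6.36, 0.78 and 0.44 times in wild-type animals 1, 2 and 3. The wild-type ratios rest on few reads, 11, 27 and 25 for S100a8 and 70, 21 and 11 for S100a9.

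Olfm4 encodes olfactomedin 4, a secreted glycoprotein of a subset of neutrophils and of gut crypts. It had 17.4, 13.0 and 15.5 CPM in knockout-labelled animals 1, 2 and 3, against 3.95, 2.19 and 0.86 CPM in wild-type animals 1, 2 and 3 (log2 fold change 2.71, SE 0.47). The knockout-labelled animals were within 1.34 times of one another, whereas the wild-type animals spanned 4.57 times. Cst7 encodes cystatin F, an inhibitor of lysosomal cysteine proteases in natural killer cells, T cells and myeloid cells. Its level was 7.08, 2.14 and 2.22 CPM in knockout-labelled animals 1, 2 and 3, against 0.11, 0.41 and 0.10 CPM in wild-type animals 1, 2 and 3 (log2 fold change 4.18, SE 0.85). It was the sparsest member, with 263 reads over the knockout-labelled and 16 over the wild-type libraries.

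Bpifb1 encodes a secreted lipid-binding protein of airway and other mucosal epithelia, related to the bactericidal protein BPI. It had 101, 102 and 118 CPM in knockout-labelled animals 1, 2 and 3, against 25.1, 44.2 and 24.6 CPM in wild-type animals 1, 2 and 3 (log2 fold change 1.77, SE 0.22). It varied least among the knockout-labelled libraries, by 1.16 times. Pglyrp1 encodes a peptidoglycan recognition protein of neutrophil granules and some epithelia that binds bacterial cell walls. It had 74.2, 108 and 106 CPM in knockout-labelled animals 1, 2 and 3, against 33.0, 15.2 and 24.5 CPM in wild-type animals 1, 2 and 3 (log2 fold change 1.99, SE 0.27). For both genes the lowest knockout-labelled library was at least 2.25 times the highest wild-type one.

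Plac8 encodes a small cysteine-rich protein of neutrophils, other leukocytes and epithelia that takes part in killing of engulfed bacteria in mouse neutrophils. It had 73.9, 109 and 91.8 CPM in knockout-labelled animals 1, 2 and 3, against 31.6, 24.0 and 18.4 CPM in wild-type animals 1, 2 and 3 (log2 fold change 1.89, SE 0.22). Prss27 encodes marapsin, a serine protease anchored to the surface of stratified squamous epithelium. It had 72.2, 89.1 and 82.3 CPM in knockout-labelled animals 1, 2 and 3, against 44.7, 33.8 and 37.9 CPM in wild-type animals 1, 2 and 3 (log2 fold change 1.07, SE 0.15). It showed the smallest difference of the 10 members and the narrowest spread within wild type, 1.32 times.

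Levels can be compared between members only per length, and for that the CPM was divided by the summed length of annotated exons in kilobases. In knockout-labelled libraries Prss27 was highest at 64.8 ± 6.77 CPM per kilobase, followed by Plac8 at 57.5 ± 11.0 and Pglyrp1 at 52.2 ± 10.3 (SD, n = 3 each). The library ranges of these neighbours in the order overlapped. Bpifb1 came next at 29.6 ± 2.55, then S100a9 at 20.4 ± 8.21 and Ltf at 18.96 ± 6.13 CPM per kilobase (SD, n = 3 each), each overlapping the next. S100a8, Lcn2, Olfm4 and Cst7 averaged between 3.87 (Cst7) and 8.11 (S100a8) CPM per kilobase, and their ranges overlapped as well. In wild type Prss27 was highest too, at 31.0 ± 4.41 CPM per kilobase (SD, n = 3), and Ltf was at 1.13 ± 0.71, below Lcn2 at 2.44 ± 1.18 CPM per kilobase (SD, n = 3 each). Their ranges in wild type overlapped.

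Within the knockout-labelled group the members differed in whether animal 1 was highest or lowest, so the 2 patterns given here rest on that 1 library. Ltf, Lcn2, S100a8, S100a9, Olfm4 and Cst7 were highest in animal 1, with animals 2 and 3 at 0.30 to 0.89 times its level. Bpifb1, Pglyrp1, Plac8 and Prss27 were lowest in animal 1, with animals 2 and 3 at 1.01 to 1.47 times its level. Bpifb1 was nearly level, with animals 2 and 3 at 1.01 and 1.16 times animal 1. Animal 1 was the one female of its group and the library with the highest erythroid sum. The part of sex and of blood in these patterns was not tested. In wild type, animal 1 was the highest library for 7 of the 10 members, and Bpifb1, S100a8 and Cst7 were highest in animal 2. Between the animals 1, both female, the knockout-labelled one had 1.62 to 23.8 times the level of the wild-type one for 9 members, and Cst7 had 169 reads in the knockout-labelled one against 3 in the wild-type one.

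**Figure D2:**
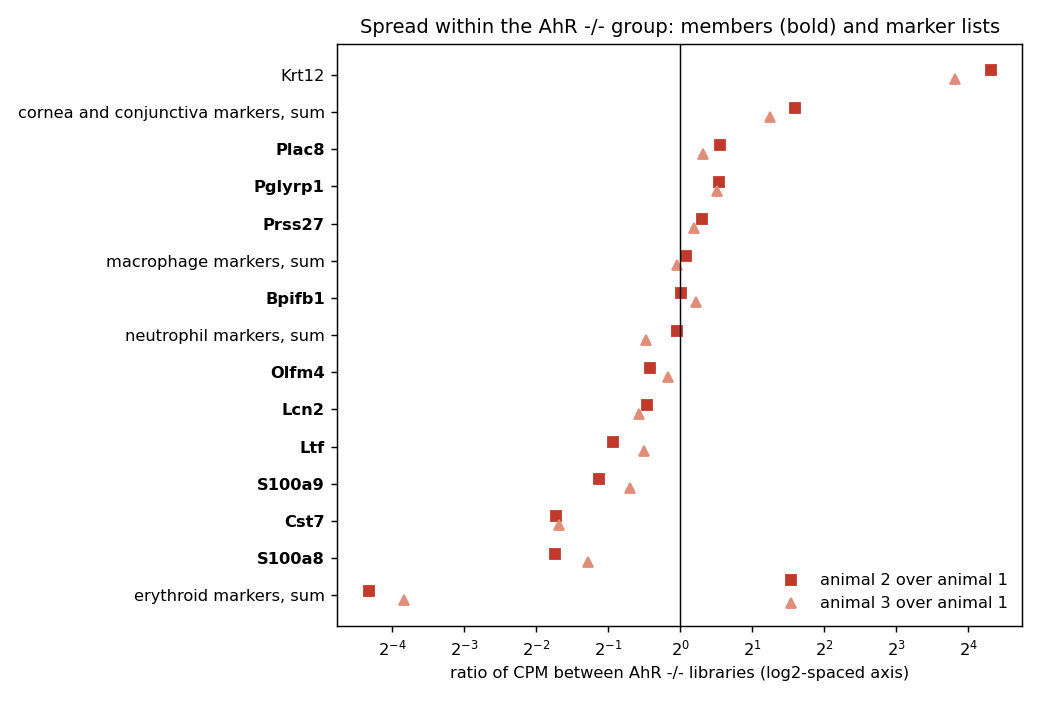
Level in knockout-labelled animals 2 (squares) and 3 (triangles) as a ratio to knockout-labelled animal 1, on an axis spaced by log2. Shown are each member (bold), Krt12 and the summed CPM of the neutrophil, cornea and conjunctiva, macrophage and erythroid markers. Krt7, Krt19 and the monocyte and lymphoid sum are not drawn. Pglyrp1, Plac8, Prss27 and Bpifb1 lie right of 1 and the other 6 members left of it, while Krt12 and the erythroid sum lie at opposite ends.

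Neutrophils make several of the members, and 19 other neutrophil markers were in the table. Of these, 15 were detected, and their sum was 74.6, 72.6 and 53.9 CPM in knockout-labelled animals 1, 2 and 3, against 44.8, 47.4 and 40.4 CPM in wild-type animals 1, 2 and 3. The sum was higher in each knockout-labelled library than in any wild-type one, and in knockout-labelled animal 1 it was 1.67 times that of wild-type animal 1. Clec4d, the highest of them, is a receptor shared with macrophages and averaged 19.3 ± 4.86 and 15.6 ± 3.99 CPM in knockout-labelled and wild-type libraries (SD, n = 3 each). Csf3r, the receptor for granulocyte colony-stimulating factor, was at 14.5, 18.3 and 9.10 CPM in knockout-labelled animals, against 10.2, 12.4 and 10.6 CPM in wild type, and the groups overlapped. Camp, which encodes the antimicrobial peptide precursor stored beside lactotransferrin in secondary granules, was at 3.44, 0.11 and 1.69 CPM in knockout-labelled animals and at 2.11, 2.44 and 1.52 CPM in wild type. Its groups overlapped as well. Of the 19 markers 10 were tested, with 9 log2 fold changes above 0, 1 below (Camp) and a median of 0.72. Higher without overlap between the groups were 2 of the 10, against 10.03% of all genes. In edgeR's quasi-likelihood test 0 of the 10 had an unadjusted p under 0.05, against 14.2% of all genes tested.

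Cxcr2, the chemokine receptor of circulating neutrophils, was at 2.01, 1.04 and 0.36 CPM in knockout-labelled animals 1, 2 and 3, and 0 reads in all 3 wild-type libraries allow up to 0.124 CPM in each. Ngp, Elane, Mpo and Stfa2l1 had 0 reads in all 6 libraries, which allows up to 0.165 CPM in the shallowest library. Ngp encodes a secondary granule protein, and Mpo and Elane are made mainly in bone marrow precursors. The near-identical alpha-globin genes Hba-a1 and Hba-a2 were listed at 0 too, although other erythroid genes were counted, so a 0 in this table may also reflect how reads were assigned. Camp, Csf3r, Cxcr2 and the keratins below were picked with their values in view. The part of neutrophil content in the members' difference was not tested.

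Surface epithelium of the eye also makes several of the members, and it lies outside the dissected tissue. The 23 markers of cornea and conjunctiva summed to 8293, 25115 and 19640 CPM in knockout-labelled animals 1, 2 and 3, against 10301, 5329 and 6045 CPM in wild-type animals 1, 2 and 3, with 22 of 23 detected and Muc5ac, a goblet cell mucin gene, at 0. Gsto1, the highest of them, averaged 4273 ± 1663 CPM in knockout-labelled and 1545 ± 538 CPM in wild-type libraries (SD, n = 3 each). Knockout-labelled animal 1 was below wild-type animal 1 in this sum, at 0.81 times. Its Krt12, the keratin of corneal epithelium, was the lowest of all 6 libraries at 206 CPM, against 4103 and 2903 CPM in knockout-labelled animals 2 and 3. Bpifb1 was 0.49 times Krt12 in knockout-labelled animal 1 and 0.02 to 0.09 times Krt12 in the other 5 libraries.

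Of the 23 cornea and conjunctiva markers 22 were tested, with 20 log2 fold changes above 0 and a median of 1.20. In edgeR's quasi-likelihood test 17 of the 22 had an unadjusted p under 0.05, against 14.2% of all genes tested. The test called 0 of them, against 0.0506% of all genes. Krt12 included, 17 of the 22 were lowest in animal 1 among the knockout-labelled libraries. Higher without overlap between the groups were 3 of the 22 (Gsto1, Krt7 and Krt19), against 10.03% of all genes. Krt7, a keratin of simple and glandular epithelium and of conjunctiva, was at 157, 143 and 127 CPM in knockout-labelled animals 1, 2 and 3, against 74.7, 21.2 and 46.1 CPM in wild-type animals 1, 2 and 3. Krt19 was at 240, 291 and 261 CPM in knockout-labelled against 166, 48.1 and 89.1 CPM in the wild-type group. Animals 2 and 3 of the knockout-labelled group were at 0.81 to 1.22 times animal 1 for both. Krt7 (log2 fold change 1.59, edgeR quasi-likelihood adjusted p = 0.145) and Krt19 (1.38, edgeR quasi-likelihood adjusted p = 0.185) did not pass the test. Of 11 lacrimal and Harderian gland markers in the table, 4 were detected, and their sum was 108 to 548 CPM in knockout-labelled and 128 to 191 CPM in wild-type libraries. Aqp5, a water channel gene that cornea also expresses, made up 58.0 CPM of it in knockout-labelled animal 1, 512 and 387 CPM in knockout-labelled animals 2 and 3, and 82.9 to 169 CPM in wild type. The gland genes Dcpp1, Dcpp2, Dcpp3, Spt1, Mucl1, Prol1 and Scgb2b24 were at 0 in all libraries. The part of surface or gland epithelium in the members' difference was not tested.

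**Figure D3:**
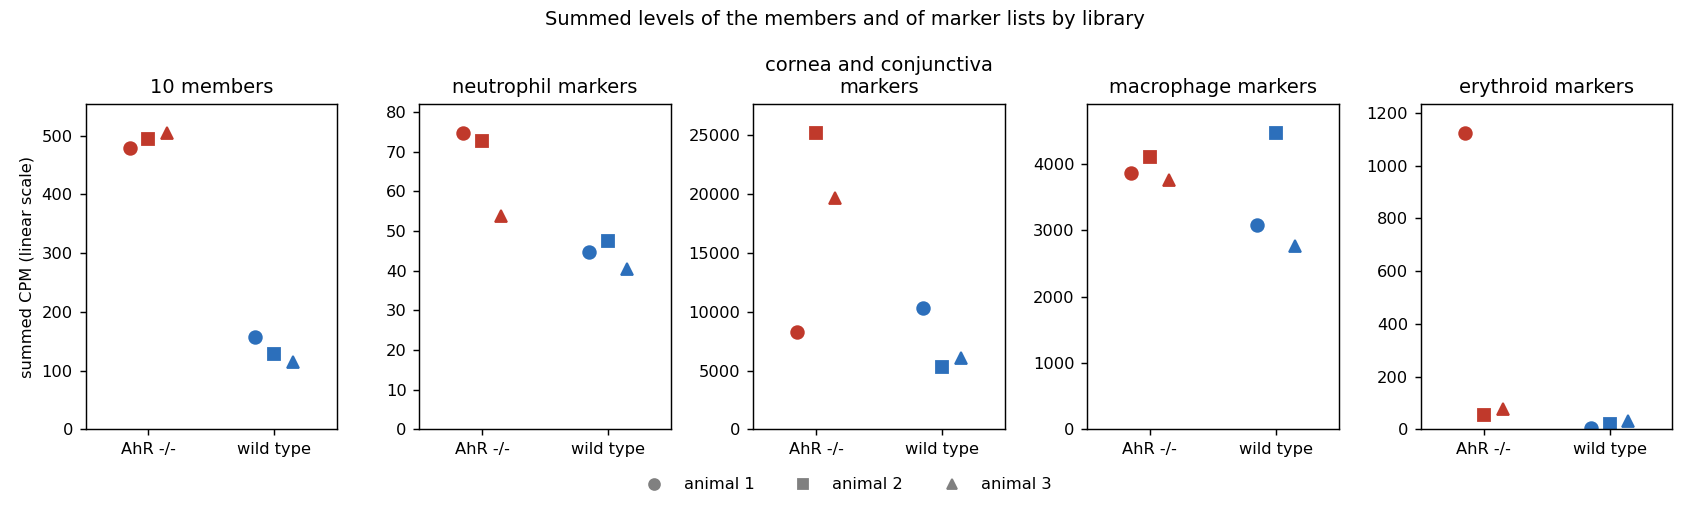
Summed CPM (linear axes from 0) of the 10 members and of 4 marker lists in the 3 knockout-labelled (red, labelled AhR -/-) and 3 wild-type (blue) libraries, with a marker shape per animal. The members' sum runs from 478 to 504 CPM across the knockout-labelled animals. It adds 6 members that are highest and 4 that are lowest in animal 1, so it does not show that each member is level. The cornea and conjunctiva sum runs from 8293 to 25115 CPM and the erythroid sum from 56.1 to 1122 CPM in the same animals.

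Macrophage markers were all detected (15 of 15) and overlapped between groups, with sums of 3762 to 4111 CPM in knockout-labelled and 2770 to 4465 CPM in wild-type libraries. Of the 15, 11 log2 fold changes were above 0 and 4 below, with a median of 0.18. In edgeR's quasi-likelihood test 2 had an unadjusted p under 0.05, against 14.2% of all genes tested. Lyz2, the lysozyme gene of macrophages and neutrophils, averaged 1858 ± 341 CPM in knockout-labelled and 1573 ± 483 CPM in wild-type libraries (SD, n = 3 each). Monocyte and lymphoid markers summed to 59.6, 51.9 and 34.1 CPM in knockout-labelled animals 1, 2 and 3, against 30.2, 30.4 and 28.4 CPM in wild-type animals 1, 2 and 3. All 19 of these were detected, and of the 16 tested, 10 log2 fold changes were above 0 and 6 below. The most abundant was Ccr2, a monocyte chemokine receptor, at 13.9 ± 1.27 and 7.27 ± 2.54 CPM in knockout-labelled and wild-type libraries (SD, n = 3 each). Their part in the level of Cst7 was not tested.

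The 5 lists of related genes, which exclude the members, held 99 tested genes, and edgeR's quasi-likelihood test called 0 of them in either direction, against 0.0506% of all genes. Without adjustment, 40 of the 99 had a p under 0.05 in that test, against 14.2% of all genes tested. DESeq2 called 21 of the related genes higher and 1 lower, against 1.73% of all genes called higher, and edgeR's exact test called 15 higher and 1 lower, against 1.34%. For 30 of the 99 related genes every knockout-labelled library was above every wild-type one, against 10.03% of all genes, and for 5 every one was below, against 9.96% of all genes. The median log2 fold change of the 99 was 0.27. These genes come from the same 6 libraries and are not independent of one another. The lists were also chosen with earlier results of these data known, so the shares are given as description.

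Among other neutrophil granule and cytosol proteins, 29 were in the table and 20 were tested, with 19 log2 fold changes above 0, a median of 0.58 and 5 genes higher without overlap between the groups, against 10.03% of all genes. The most abundant after Lyz2 was Anxa1, which encodes the inflammation-resolving protein annexin A1, at 421 ± 104 CPM in knockout-labelled and 194 ± 60.9 CPM in wild-type libraries (SD, n = 3 each). Arg1, encoding the arginine-consuming enzyme arginase 1, was named after its values were seen. It had 41.5, 31.8 and 43.8 CPM in knockout-labelled animals 1, 2 and 3, against 12.52, 6.53 and 5.29 CPM in wild-type animals 1, 2 and 3 (log2 fold change 2.27, SE 0.31), and it did not pass edgeR's quasi-likelihood test (adjusted p = 0.0502). It was called by DESeq2 and by the exact test.

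Other secreted proteins of mucosal and lacrimal epithelia were rarely counted, with 17 of 38 at 0 reads in all libraries, among them Bpifa1, Reg3g and Tff3, which were picked, as was Il17a below, with their values in view. The 11 that were tested all had log2 fold changes above 0, with a median of 1.27, and 6 were higher without overlap between the groups, against 10.03% of all genes. Muc4, a membrane mucin gene, averaged 475 ± 209 CPM in knockout-labelled and 197 ± 85.9 CPM in wild-type libraries (SD, n = 3 each), and its groups overlapped. Wfdc2, which encodes a small secreted protein with protease-inhibitor domains, was at 89.4 ± 8.94 CPM in knockout-labelled and 51.3 ± 2.59 CPM in wild-type libraries (SD, n = 3 each; edgeR quasi-likelihood adjusted p = 0.0759). Its groups did not overlap, and DESeq2 and the exact test called it higher.

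Relatives of the members by protein family had 17 log2 fold changes above and 15 below 0 of 32 tested, with a median of 0.00. Of the 32, 9 were higher and 4 lower without overlap between the groups, against 10.03% and 9.96% of all genes. An unadjusted p under 0.05 in edgeR's quasi-likelihood test was found for 15 of the 32, against 14.2% of all genes tested. DESeq2 called 11 of them higher and 0 lower, and the exact test called 8 higher and 0 lower. Ptgds, a lipocalin-type enzyme of prostaglandin synthesis, averaged 8275 ± 2301 CPM in knockout-labelled and 9558 ± 1136 CPM in wild-type libraries (SD, n = 3 each). Trf, the transferrin gene and a relative of Ltf, averaged 7991 ± 3012 CPM in knockout-labelled and 9509 ± 1785 CPM in wild-type libraries (SD, n = 3 each). Both overlapped between groups. Pglyrp4, an epithelial peptidoglycan recognition protein gene named after its values were seen, was at 11.6, 27.8 and 27.4 CPM in knockout-labelled animals 1, 2 and 3, against 4.78, 1.61 and 3.32 CPM in wild-type animals 1, 2 and 3 (log2 fold change 2.77, edgeR quasi-likelihood adjusted p = 0.0946). DESeq2 and the exact test called it higher. Among the knockout-labelled libraries it was lowest in animal 1, as was Pglyrp1.

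Receptors, carriers and target enzymes of the members had 20 of 22 genes tested, with a median log2 fold change of 0.20. Of the 20, 16 were above 0 and 4 below. Without overlap between the groups 6 were higher, against 10.03% of all genes, and 1 was lower (Slc22a17), against 9.96%. Bsg, whose product binds calprotectin, averaged 1952 ± 654 and 1950.2 ± 119 CPM in knockout-labelled and wild-type libraries (SD, n = 3 each). Lrp1, an endocytic receptor that binds lactotransferrin, averaged 1339 ± 264 CPM in knockout-labelled and 1883 ± 282 CPM in wild-type libraries (SD, n = 3 each). Slc22a17, a proposed lipocalin 2 receptor named after its values were seen, was lower in all knockout-labelled libraries at 263, 124 and 170 CPM, against 372, 390 and 360 CPM in wild type. Its log2 fold change of -1.01 (SE 0.24) did not pass edgeR's quasi-likelihood test (adjusted p = 0.167). DESeq2 and the exact test called it lower.

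Regulators known to induce such proteins had a median of 0.15 over 18 tested genes, with 10 above 0 and 8 below. Without overlap between the groups 4 were higher and 0 lower, against 10.03% and 9.96% of all genes. Stat3, the transcription factor downstream of interleukins 6 and 22, was at 186 ± 3.53 CPM in knockout-labelled and 129 ± 12.7 CPM in wild-type libraries (SD, n = 3 each; edgeR quasi-likelihood adjusted p = 0.161). DESeq2 called Stat3 higher and the exact test did not. Il10rb, a receptor subunit for interleukins 10 and 22, was at 137 ± 18.1 CPM in knockout-labelled and 117 ± 12.9 CPM in wild-type libraries (SD, n = 3 each). Il17a, which encodes a main epithelial inducer of calprotectin and lipocalin 2, had 0 reads in all 6 libraries, which allows up to 0.104 to 0.165 CPM.

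**Figure D4:**
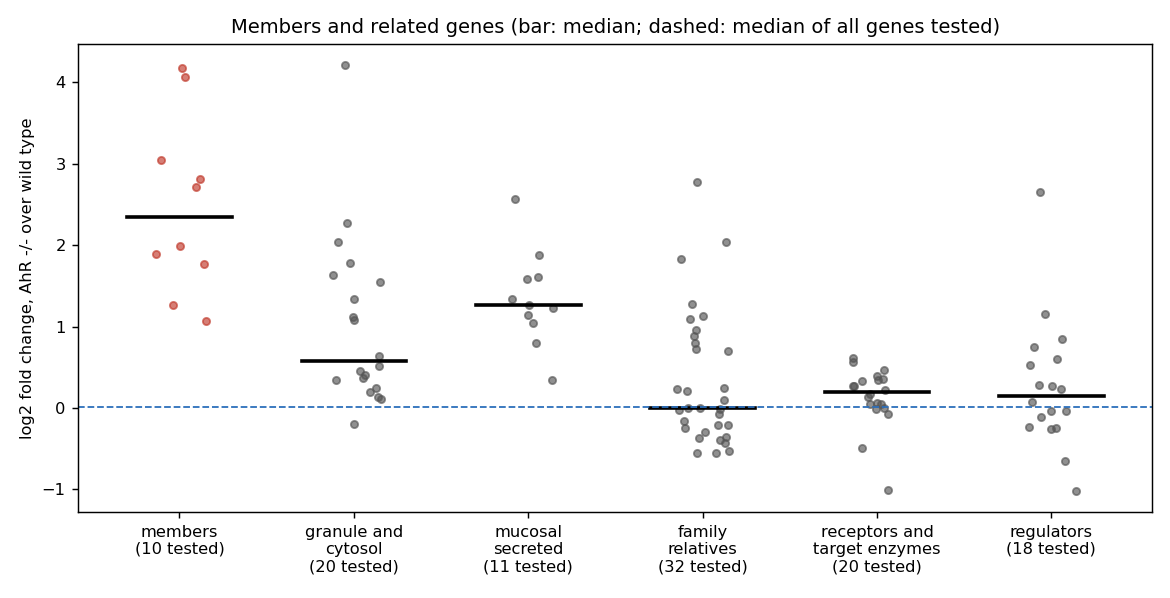
Log2 fold change (knockout-labelled over wild type, labelled AhR -/- on the axis) of the members (red) and of the tested genes of 5 related lists (grey), 1 point a gene, with the list median as a bar and the median of all 15796 genes tested as a dashed line. The members' median is 2.35, the mucosal list's 1.27 and the granule list's 0.58, and the other 3 lists lie between 0.00 and 0.20.

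The genes whose pattern over the 6 libraries was nearest to a member's were sought by the root mean square difference of log2(CPM + 1) values, each centred on its own mean, among 13865 genes with a mean of at least 1 CPM. For Ltf they were Wfdc18 (0.71), a gene for a small secreted whey acidic protein-type protein, S100a9 (0.77) and Olfm4 (0.84). For S100a9 they were Tfcp2l1 (0.18), a transcription factor gene of ductal epithelia, Olfm4 (0.22) and Arg1 (0.26). For Bpifb1 they were Knstrn (0.25), a kinetochore gene, Cmbl (0.27), a hydrolase gene, and Apol7a (0.31), of the apolipoprotein L family. Tfcp2l1 had 32.4, 16.8 and 17.6 CPM in knockout-labelled animals 1, 2 and 3, against 8.61, 2.69 and 1.97 CPM in wild-type animals 1, 2 and 3. The distance includes the group difference that the members were chosen by, so nothing is read from members lying near one another.

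The authors' deposited table lists all 10 members at an FDR under 0.05 and higher in the knockout, as it does 1.62% of its 16561 genes. The members were chosen on this contrast, so nothing is read from this or the other counts of members called. Log2 fold changes, with the sign turned to knockout over wild type, run from 1.05 for Prss27 to 4.27 for Cst7 in the authors' deposited table. Without knockout-labelled animal 1 the edgeR quasi-likelihood test called 6 of the 10 members, against 2.55% of all genes called higher, and the log2 fold change of S100a8 was 2.14 and that of Cst7 3.36. Leaving out animal 2 or 3 of the knockout-labelled group, or animal 3 of wild type, left 0 members called, and leaving out wild-type animal 2 left 1. Log2 fold changes over all genes moved with transcript GC content, from a median of 0.18 in the decile of lowest to -0.26 in that of highest GC content. The members have 42.1% to 57.6% GC, and the genes of their deciles had medians between -0.17 and 0.14. The part of GC content in the members' difference was not tested.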

How the data were processed

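RPE-choroid RNA of 6 mice was compared, 3 labelled AhR -/- and 3 AhR +/+. The authors' deposited counts per gene and animal are whole numbers, made with TopHat, Bowtie and HTSeq on mm10, per the submitters' processing notes. Versions, annotation and strand setting: not given in the sources used here. Strand being unknown, overlapping antisense genes are uncertain. The authors' deposited edgeR table holds log2 fold changes coded wild type over knockout, with p-values and FDR. Tallies of the counting tool were left out; reads with no gene were 14.4% to 16.8% of each library.

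Counts were fitted with edgeR 4.0.16 (R 4.3.3): filterByExpr (minimum count 10, total 15), TMM, glmQLFit and glmQLFTest with genotype as the term, and Benjamini-Hochberg adjustment over 15796 genes, called under 0.05. The SE is the absolute log2 fold change over the square root of F. DESeq2 1.42.0, limma-voom (limma 3.58.1), the exact test, other scalings and filters, an animal-number block and leaving out each library were alternatives. The fit was tested on data simulated with the same dispersion for all genes and log2 changes of 2 or 3 in well-counted genes. It recovered 100 of 100 changed genes at each size, with 7 false calls. The simulation does not cover sparsely counted genes or genes that vary more between animals, so it does not speak for the sparse members. Chi-square per degree of freedom between libraries was 29.6 to 122, so none was deposited in duplicate. Floors for 0 reads take 3 counts per library; they cover counting error only.

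The members and lists were chosen with earlier results of these data known. Named were all members, the called genes and the 2 highest by mean CPM of each related list, the highest gene and those at 0 of each marker list, and 3 nearest patterns each for Ltf, Bpifb1 and S100a9, predicted genes left out; other genes are marked as chosen after their values were seen. Another 27 names that read as dates and 4 rows with a repeated name are not named.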

Additional observations from a re-analysis of the deposited data

How the results depend on the processing

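Every member stayed above 0 in all 14 alternatives, with log2 fold changes between 0.97 and 5.08. Of 140 such values, 6 moved by more than the spread between replicates, all with a library left out: Ltf 4.68, S100a9 4.10 and Olfm4 3.33 without wild-type animal 1, S100a8 2.14 and Cst7 3.36 without knockout-labelled animal 1, and Cst7 5.08 without wild-type animal 2. The number of calls depended on the setting. The quasi-likelihood test called 8 genes, 3 of them members and 0 of the related lists. Upper-quartile factors gave 15 genes, 5 members and 1 related gene, no filter 22, 5 and 2, the CPM filter 16, 5 and 1, limma-voom 13, 5 and 1, DESeq2 493, 10 and 22, and the exact test 357, 10 and 16. With a library left out the counts ran from 0 to 795 genes, 0 to 6 members and 0 to 22 related genes, the highest without knockout-labelled animal 1. Where edgeR called 0 genes, 1516 (animal 2 of the knockout-labelled group left out), 1719 (its animal 3) and 1738 (animal 3 of wild type) had an unadjusted p under 0.05. The log2 fold change of Ahr, 0.95, did not pass (edgeR quasi-likelihood adjusted p = 0.0991). It passed at 0.95 in DESeq2 and in the exact test, and at 0.97 without knockout-labelled animal 1, and was 0.87 to 1.07 with a library left out. Animal numbers were not taken as pairs. Deviations of same-numbered animals from their group means correlated at -0.096, -0.092 and -0.067, which with 3 animals per group cannot exclude pairing. Animal 1 was female and animals 2 and 3 male in both groups, so a block on animal number also takes up sex. With the replicate block 1 gene was called, the member Ltf, and 0 related genes. Depth limits S100a8 and Cst7 in wild type, where some libraries hold 11 and 3 reads.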

Other observations

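Alignments that the counting tool set aside as not unique made up 25.1%, 23.6% and 22.9% of the tally in knockout-labelled animals 1, 2 and 3, against 18.7%, 19.4% and 19.1% in wild-type animals 1, 2 and 3. Their part in the members' values was not tested.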
